A study of Mus musculus with 6 samples.

Results

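*Cotl1*, *Coro1a*, *Ptprc*, *Cd52*, *Cd53*, *Laptm5*, *Lcp1*, *Arhgdib*, *Rac2* and *Lsp1* are genes that most leukocytes transcribe, whatever their lineage, for proteins of the cell surface and of the actin cytoskeleton under it. They were chosen by name, with the levels and fold changes of these same mice already known, so what follows on their difference between genotypes is a description of these samples and not a test. All 10 were found among the 56923 genes of the count table, and all 10 passed the filter on low counts that left 17212 genes for the fit. The files paired 9 of the 10 with a symbol, and *Cd52* was found by its identifier in the GENCODE annotation.

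RNA was sequenced from the left ventricle of 12-week-old male mice on the C57BL/6J background after perfusion with PBS. The groups were 3 wild-type (WT) mice and 3 mice heterozygous for the Noonan syndrome-associated variant of *Lztr1* (*Lztr1* R409C/+), which was introduced in the germline with CRISPR/Cas9 and is therefore present in every cell type of the heart. Each mouse gave 1 library, and the labels give no other allele or treatment for either group. The labels name the tissue as heart, and its cardiomyocyte markers were abundant, with *Myh6* the highest of 12.

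Leukocytes migrate, engulf particles and form contacts with other cells by building and dismantling actin filaments at the membrane. Coactosin-like 1, coronin 1A, L-plastin and LSP1 bind the filaments directly, the GTPase RAC2 starts their assembly, and the GDP-dissociation inhibitor encoded by *Arhgdib* holds such GTPases inactive in the cytosol. CD45, CD52, CD53 and LAPTM5 are membrane proteins of the same cells, and CD45, the phosphatase encoded by *Ptprc*, is the usual marker by which leukocytes are recognised in a tissue. A healthy ventricle holds resident macrophages and few other leukocytes, so these transcripts are a small share of its RNA.

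Levels in CPM (counts of a gene for every 1000000 counts of the library), scaled with the trimmed mean of M values (TMM), were higher in the mutant mean for all 10 genes. The sum of the 10 was 87.7, 96.8 and 76.9 CPM in the WT mice and 164.6, 158.4 and 156.9 CPM in the mutants, so the lowest mutant lay above the highest WT mouse. In 9 of the 10 genes every mutant was above every WT mouse, a pattern met in 8.3% of the 17212 genes tested. With edgeR's quasi-likelihood test and Benjamini-Hochberg adjustment over all genes, 1 of the 10 passed 0.05 (*Cotl1*), against 0.0349% of all genes called higher and 0.00581% called lower. All 10 had an unadjusted p under 0.05 with a higher mutant level, as did 5.77% of all genes. DESeq2 called 8 of the 10 (0.831% of all genes called higher) and edgeR's exact test 7 (0.738%). With any 1 mouse left out, the quasi-likelihood test called none of the 10. Since the genes were picked with this comparison in view, nothing is read from these counts against those shares. The median log2 fold change was 0.91 over the 10 genes and 0.01 over all genes tested.

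**Figure D1:**
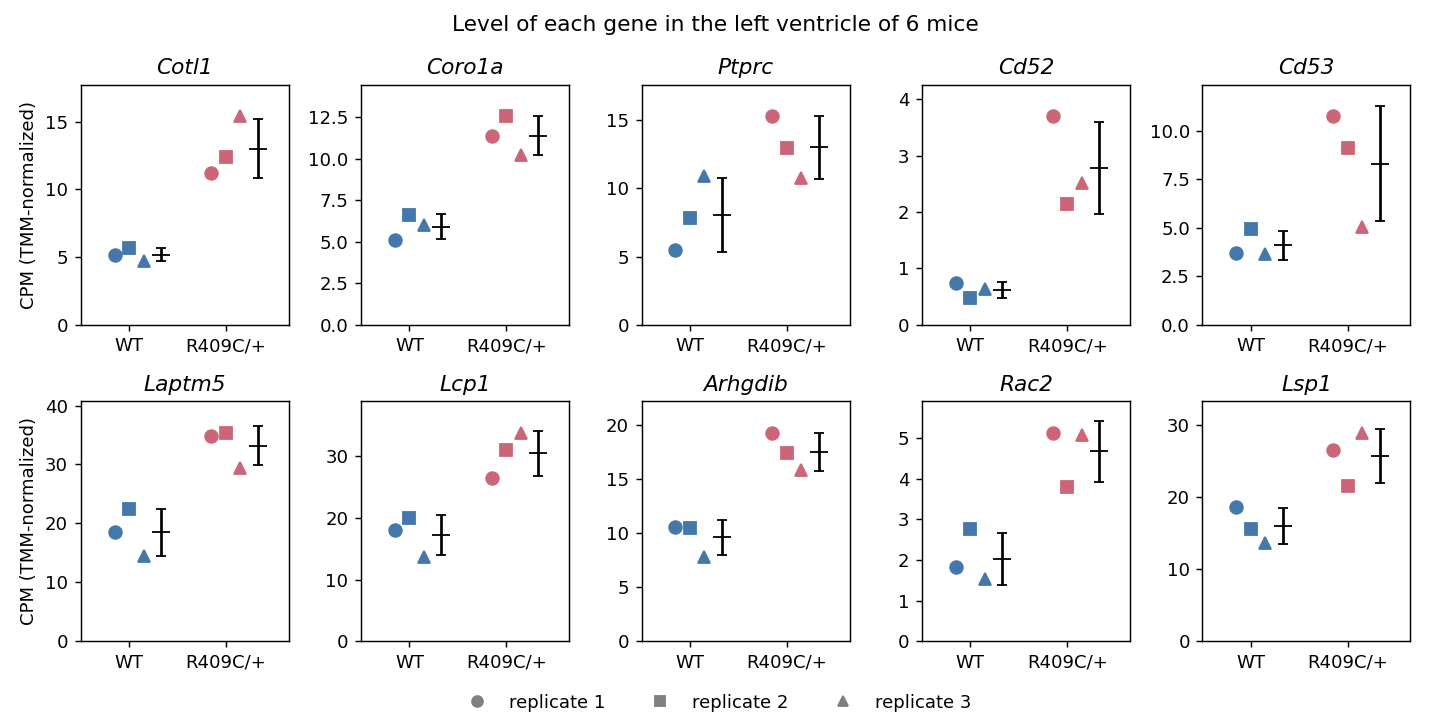
Level of each of the 10 genes in CPM with TMM normalization (vertical axes, linear from 0) in 3 WT and 3 *Lztr1* R409C/+ left ventricles. Points are mice, their shapes are replicate numbers, and the horizontal and vertical bars are the mean and SD (n = 3). The groups overlap for *Ptprc* only, where WT replicate 3 (10.9 CPM) is above mutant replicate 3 (10.7 CPM).

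Promoter sequence in the RefSeq promoter table (mouse build GRCm38.p6) was matched by symbol for 6 of the 10 genes, *Ptprc*, *Cd53*, *Laptm5*, *Arhgdib*, *Coro1a* and *Lcp1*, with 11 windows in all because some have more than 1 start. *Cotl1*, *Cd52*, *Rac2* and *Lsp1* were not matched. Each window runs from 250 bases before a transcription start to 50 bases after it. The windows were searched on both strands for GGAAGT (the core of sites for ETS factors), GAGGAA (the core of sites for the myeloid ETS factor PU.1), TGTGGT (the core of RUNX sites) and TATAAA (the box that binds TBP). The ETS and PU.1 letters share GGAA and can overlap in 1 stretch. The 250 bases before the start are shown for 3 genes of membrane proteins, *Ptprc* with overlapping groups among them, because their stretches between them hold all 4 motifs, 5′ to 3′ on the strand of the gene, with the matches on either strand in capitals. The *Laptm5* stretch is chr4:130913066-130913315 on the forward strand, the *Cd53* stretch is chr3:106790150-106790399 on the reverse strand, and that of the first *Ptprc* window is chr1:138175306-138175555 on the reverse strand.
Laptm5: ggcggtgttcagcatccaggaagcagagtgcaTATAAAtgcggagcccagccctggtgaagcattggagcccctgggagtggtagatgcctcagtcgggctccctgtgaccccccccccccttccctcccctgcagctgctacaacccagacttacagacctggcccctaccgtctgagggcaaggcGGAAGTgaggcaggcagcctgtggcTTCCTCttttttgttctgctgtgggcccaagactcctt
Cd53: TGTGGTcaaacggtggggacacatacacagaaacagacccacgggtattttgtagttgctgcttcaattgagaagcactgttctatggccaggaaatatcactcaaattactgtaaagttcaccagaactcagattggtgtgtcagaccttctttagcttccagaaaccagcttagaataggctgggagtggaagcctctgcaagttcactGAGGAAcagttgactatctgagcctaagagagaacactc
Ptprc: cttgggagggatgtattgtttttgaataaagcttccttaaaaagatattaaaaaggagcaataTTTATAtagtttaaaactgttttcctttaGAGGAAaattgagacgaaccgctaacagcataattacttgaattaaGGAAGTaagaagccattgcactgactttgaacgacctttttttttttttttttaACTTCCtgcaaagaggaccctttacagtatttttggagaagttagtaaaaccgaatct

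In *Laptm5* the ETS letters began 63 bases before the start (-63 in the numbering of the gene's strand, where -1 is the last base before the start) and the PU.1 letters at -38 on the opposite strand. *Cd53* held PU.1 letters at -39 and RUNX letters at -250, and past the start, outside the stretch shown, overlapping ETS and PU.1 letters on the opposite strand at 7 and 9, and the first *Ptprc* window held PU.1 letters at -158 and ETS letters at -112 and, on the opposite strand, at -58. Across the 6 genes, 5 had the ETS letters in at least 1 window, against 26.5% of the 27025 genes of the table. PU.1 letters were in 4 of the 6 against 31.3%, RUNX letters in 2 against 18.9%, and TATAAA in 3 against 15.7%. The TATAAA matches began at -187 on the opposite strand in *Ptprc*, at -218 in *Laptm5*, and at -234 and -219 in *Arhgdib*, and none lay closer to a start. On average the 6 genes have more windows than the genes of the table at large, so the counts per gene are not on equal terms. By window, the ETS letters were in 6 of 11 against 23.8% of 32851, the PU.1 letters in 4 against 28.3%, the RUNX letters in 2 against 16.8% and TATAAA in 3 against 13.6%. Both *Coro1a* windows held none of the 4, which says only that those letters are not in those windows. A match of 6 letters is a description of the sequence and not a binding site.

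Among the proteins that bind actin filaments, *Cotl1* (coactosin-like 1, which slows the disassembly of filaments at the leading edge and also binds 5-lipoxygenase) is a gene of 3 exons on chromosome 8 (ENSMUSG00000031827.14; GRCm39, 120535961 to 120567323, reverse strand). Its level was 5.16, 5.65 and 4.74 CPM in WT replicates 1 to 3 and 11.2, 12.4 and 15.4 CPM in mutant replicates 1 to 3. The WT mice lay close together and the lowest mutant stood well above them. The means were 5.19 ± 0.458 and 13.01 ± 2.16 CPM (SD, n = 3 each), a ratio of 2.51. The fitted log2 fold change was 1.33 (SE 0.19), the seventh smallest p of all genes and the last that passed, with an edgeR adjusted p of 0.0411. The call was lost when any 1 of the 6 mice was left out (adjusted p of 0.111 to 0.192), and also with scaling by library size alone (0.197), the gene length correction (0.161) and the replicate block (0.251). *Cotl1* had the smallest WT coefficient of variation of the 10 genes, 8.83%.

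*Coro1a* encodes coronin 1A, which binds filaments and the ARP2/3 complex and is needed for lymphocyte survival and migration (ENSMUSG00000030707.16; chromosome 7, 126298942 to 126307022, reverse strand, 11 exons). It measured 5.10, 6.60 and 6.02 CPM in the WT mice and 11.4, 12.6 and 10.2 CPM in the mutants. The groups did not overlap, and the mutants were as close to each other as the WT mice in relative terms. The means were 5.91 ± 0.757 and 11.4 ± 1.17 CPM, with a log2 fold change of 0.95 (SE 0.19) and an edgeR adjusted p of 0.191.

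*Lcp1* encodes L-plastin, the plastin of blood cells, which ties filaments into bundles (ENSMUSG00000021998.17; chromosome 14, 75367978 to 75468289, forward strand, 16 exons). Its values were 18.0, 20.0 and 13.6 CPM in the WT mice and 26.5, 31.0 and 33.8 CPM in the mutants. WT replicate 3 was the lowest and mutant replicate 3 the highest, without overlap. The log2 fold change was 0.82 (SE 0.18). *Lsp1*, for a filament-binding phosphoprotein of leukocytes that endothelium also makes (ENSMUSG00000018819.11; chromosome 7, 142010740 to 142048604, forward strand, 11 exons), gave 18.6, 15.6 and 13.6 CPM in the WT mice and 26.6, 21.5 and 28.9 CPM in the mutants. WT replicate 3 was again the lowest, and the gap between the groups was small against the range of the mutants. With 0.69 (SE 0.18), *Lsp1* shared the smallest log2 fold change of the 10 genes with *Ptprc*.

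Of the GTPase and its regulator, *Rac2* is the RAC of hematopoietic cells, which drives lamellipodia and the neutrophil and macrophage NADPH oxidase (ENSMUSG00000033220.8; chromosome 15, 78443367 to 78457429, reverse strand, 7 exons). It measured 1.83, 2.75 and 1.52 CPM in the WT mice and 5.13, 3.80 and 5.08 CPM in the mutants. The mutants did not overlap the WT mice, and mutant replicate 2 was the lowest of the 3. The means were 2.03 ± 0.639 and 4.67 ± 0.749 CPM, a ratio of 2.30. *Arhgdib*, the leukocyte member of its family of GDP-dissociation inhibitors (ENSMUSG00000030220.14; chromosome 6, 136899866 to 136918909, reverse strand, 6 exons), gave 10.6, 10.4 and 7.77 CPM in the WT mice and 19.3, 17.4 and 15.8 CPM in the mutants. The groups were apart, and both had SDs of less than 2 CPM: 9.61 ± 1.59 and 17.5 ± 1.74 CPM. The log2 fold changes were 1.20 (SE 0.28) for *Rac2* and 0.87 (SE 0.18) for *Arhgdib*.

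Of the membrane proteins, *Cd52*, which encodes a short glycosylphosphatidylinositol-anchored peptide on lymphocytes and some myeloid cells, had the largest log2 fold change of the 10, 2.17 (SE 0.35). It was also the least counted (ENSMUSG00000000682.8; chromosome 4, 133809759 to 133822401, reverse strand, 2 exons), with 49, 30 and 60 counts in the WT mice and 205, 153 and 182 counts in the mutants. In CPM these were 0.742, 0.466 and 0.633 against 3.70, 2.14 and 2.51, and all were above the 0.0317 to 0.0541 CPM that 3 counts make in these libraries. Every mutant was above every WT mouse, and the ratio of means was 4.54. The edgeR adjusted p was 0.0773.

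*Cd53*, a tetraspanin of leukocytes (ENSMUSG00000040747.10; chromosome 3, 106666177 to 106697530, reverse strand, 8 exons), measured 3.68, 4.96 and 3.64 CPM in the WT mice and 10.8, 9.13 and 5.02 CPM in the mutants. Mutant replicate 3 was barely above WT replicate 2, and with the size factors of DESeq2 the groups overlapped. The mutant coefficient of variation, 35.6%, was the largest of the 10 genes. *Laptm5*, for a lysosomal membrane protein of hematopoietic cells (ENSMUSG00000028581.18; chromosome 4, 130638161 to 130663452, forward strand, 8 exons), gave 18.5, 22.5 and 14.4 CPM in the WT mice and 34.8, 35.4 and 29.4 CPM in the mutants. It had the highest CPM of the 10 in the mutants and the smallest mutant coefficient of variation, 9.91%. The log2 fold changes were 1.02 (SE 0.28) for *Cd53* and 0.85 (SE 0.19) for *Laptm5*.

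*Ptprc* (ENSMUSG00000026395.17; chromosome 1, 137990599 to 138103446, reverse strand, 33 exons) was the exception among the 10. Its level was 5.45, 7.86 and 10.9 CPM in the WT mice and 15.3, 12.99 and 10.7 CPM in the mutants. WT replicate 3, the lowest of all 6 mice for 7 of the genes, was the highest WT mouse here and exceeded mutant replicate 3. The means were 8.06 ± 2.72 and 13.01 ± 2.28 CPM, with a log2 fold change of 0.69 (SE 0.25) and an edgeR adjusted p of 0.471, the largest of the 10. *Ptprc* also had the largest WT coefficient of variation, 33.8%. Its canonical transcript is the longest of the 10 at 5124 bases. The correction for gene length used all exons of a gene, 18764 bases for *Ptprc*. Under that correction the *Ptprc* groups no longer overlapped while those of *Cd53* did. Under upper quartile scaling the *Ptprc* groups did not overlap either. Over the alternatives its log2 fold change ran from 0.43 with library size alone to 0.96 without WT replicate 3.

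**Figure D2:**
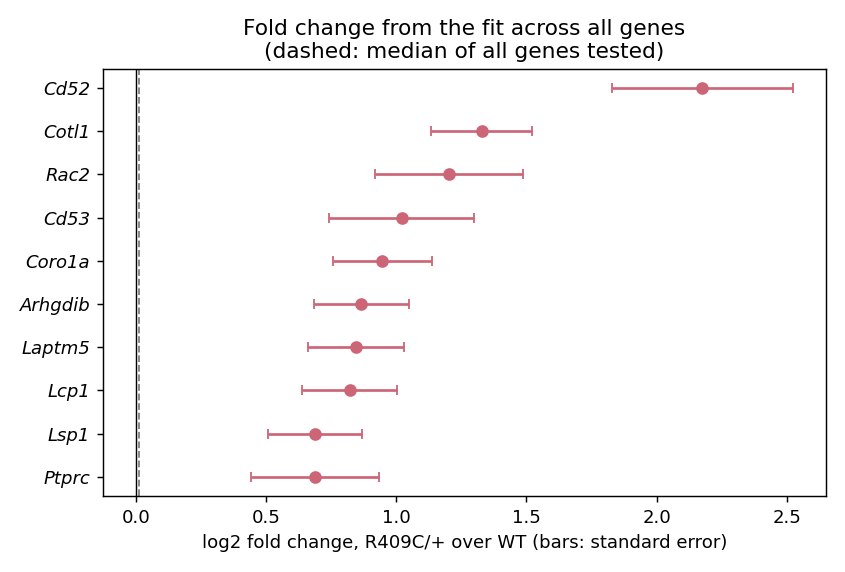
Log2 fold change of *Lztr1* R409C/+ over WT for the 10 genes from the fit across all genes (horizontal axis), with bars for the standard error (3 mice a group). The dashed line is the median of all genes tested (0.01), and all 10 genes lie to the right of it, from 0.69 for *Ptprc* and *Lsp1* to 2.17 for *Cd52*.

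Per kilobase of canonical transcript, the WT order ran from *Lsp1* (9.21 ± 1.44 CPM per kb) and *Laptm5* (7.10 ± 1.55) through *Arhgdib* (4.62 ± 0.766), *Lcp1* (4.59 ± 0.869), *Coro1a* (3.51 ± 0.451) and *Cotl1* (3.51 ± 0.310) to *Ptprc* (1.57 ± 0.532), *Cd53* (1.43 ± 0.261), *Cd52* (1.18 ± 0.266) and *Rac2* (0.584 ± 0.184). Only 3 neighbouring pairs were further apart than the sum of their SDs, namely *Laptm5* from *Arhgdib*, *Cotl1* from *Ptprc* and *Cd52* from *Rac2*. In the mutants *Cotl1* stood at rank 3 with 8.80 ± 1.46 CPM per kb, above *Arhgdib* (8.41 ± 0.836), *Lcp1* (8.10 ± 0.976) and *Coro1a* (6.77 ± 0.695), but no neighbouring pair of these 4 was further apart than the sum of its SDs. *Cd52* moved from ninth to seventh (5.33 ± 1.56 CPM per kb), and *Lsp1* (14.8 ± 2.19) and *Rac2* (1.34 ± 0.215) stayed at the ends. The order depends on the length used, and with all exons of a gene counted the WT order began with *Laptm5* and *Cotl1* and ended with *Ptprc*.

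As shares of the summed CPM of the 10 genes, *Laptm5*, *Lcp1* and *Lsp1* were the largest in both genotypes, *Laptm5* with 21.0% ± 2.23 in WT and 20.7% ± 1.83 in mutant mice. *Cotl1* was 5.88%, 5.84% and 6.16% of the sum in the WT mice and 6.81%, 7.84% and 9.82% in the mutants. *Cd52* was 0.845%, 0.481% and 0.823% in the WT mice and 2.25%, 1.35% and 1.60% in the mutants. For these 2 genes every mutant share lay above every WT share, and for the other 8 the shares of the groups overlapped. This was seen in the same mice that chose the genes and was not tested.

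**Figure D3:**
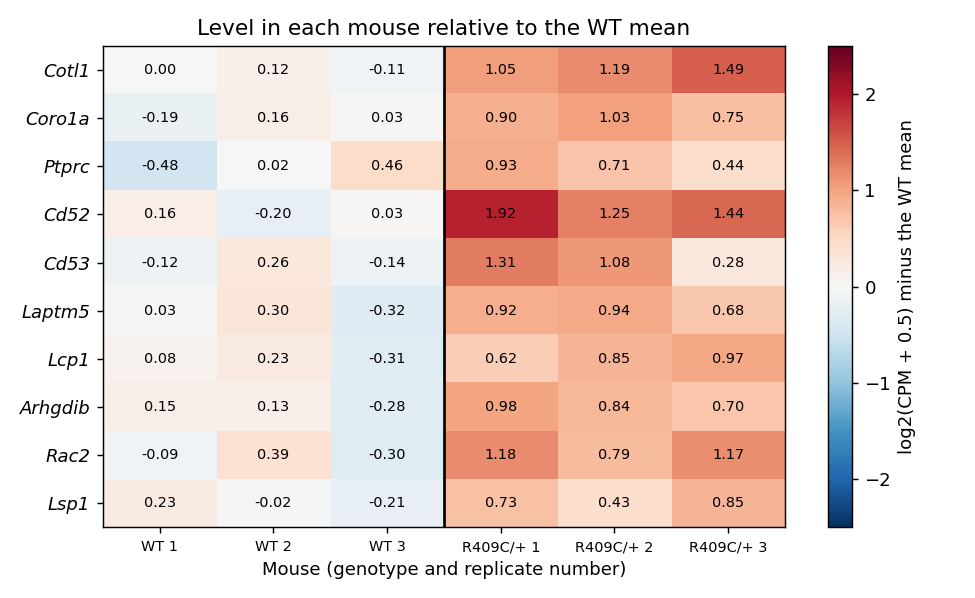
Difference of each mouse from the WT mean on the log2(CPM + 0.5) scale for the 10 genes (rows) in the 6 mice (columns), with the value written in each cell and in color from blue (lower) to red (higher). Among the WT mice, replicate 3 is below the WT mean for 7 genes and above it for *Ptprc* (0.46), and the mutants range from 0.28 (*Cd53*, replicate 3) to 1.92 (*Cd52*, replicate 1).

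The mice did not keep 1 order over the 10 genes. Of the mutants, replicate 1 was the highest of the 6 mice for 5 genes (*Ptprc*, *Cd52*, *Cd53*, *Arhgdib* and *Rac2*), replicate 2 for *Coro1a* and *Laptm5*, and replicate 3 for *Cotl1*, *Lcp1* and *Lsp1*. Replicate 3 was at the same time the lowest mutant for 5 genes. WT replicate 2 was the highest WT mouse for 6 genes.

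Library totals ran from 66130887 to 72641124 counts. The libraries differed in the share of mitochondrially encoded transcripts, which was 36.5%, 37.3% and 13.8% in the WT mice and 45.4%, 35.0% and 29.7% in the mutants (95% Wilson intervals within 0.1 percentage points of each value, for counting error only). WT replicate 3 thus had the lowest share and mutant replicate 1 the highest. As a share of the counts that were not mitochondrially encoded, scaled to 1000000 as CPM are, the sum of the 10 genes was 127.2, 139.7 and 124.0 in the WT mice and 241.3, 240.0 and 244.6 in the mutants. Without WT replicate 3 and mutant replicate 1, a choice made after seeing the data, every mutant was above every WT mouse for all 10 genes, as for 21.2% of the 17313 genes tested with 2 mice a group, and none of the 10 passed the adjusted threshold. The omission takes out the WT mouse in which *Ptprc* was highest. *Lztr1* itself measured 24.2, 24.2 and 22.2 CPM in the WT mice and 23.9, 27.9 and 25.3 CPM in the mutants, which is no check of the labels because the allele differs by a point mutation.

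**Figure D4:**
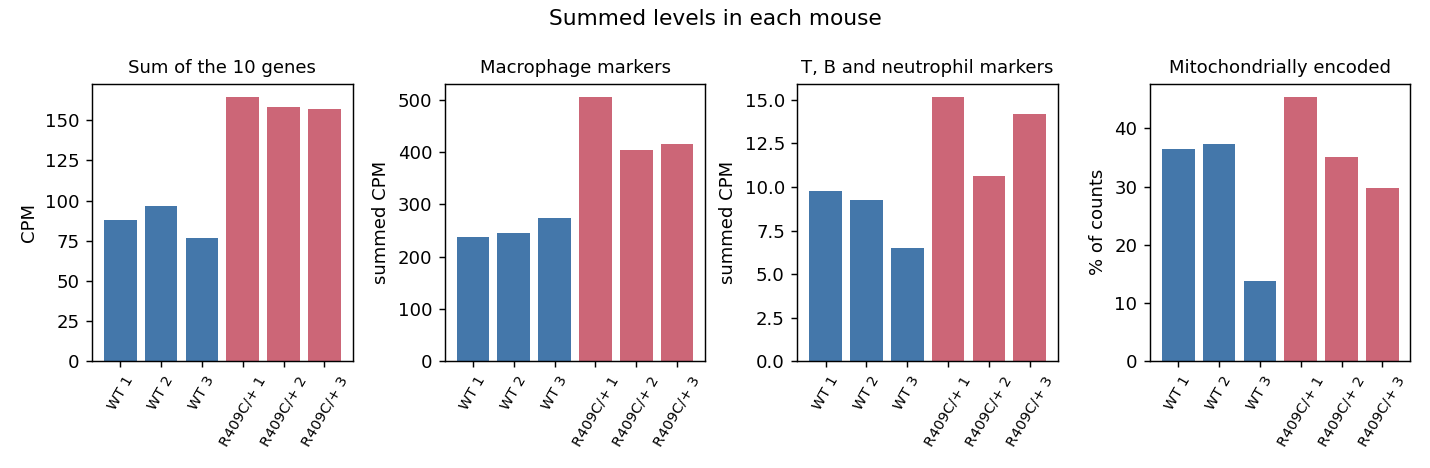
Sums in each of the 6 mice of the CPM of the 10 genes, of the macrophage markers and of the T cell, B cell and neutrophil markers (bars from 0, CPM with TMM normalization), and the percentage of counts from mitochondrially encoded genes. The sum of the 10 genes is 76.9 to 96.8 CPM in WT and 156.9 to 164.6 CPM in mutant mice, and the macrophage sum is 238.4 to 273.9 and 404.3 to 505.8 CPM.

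In a whole ventricle, more leukocytes and more RNA of these genes per leukocyte cannot be told apart. The markers of single leukocyte types were therefore set beside the 10 genes. The 12 macrophage markers all had a higher mutant mean, with a median log2 fold change of 0.996, and 10 did not overlap (8.3% of all genes tested). *C1qb* and *C1qc* were called by edgeR's quasi-likelihood test (0.0349% of all genes called higher). That test called none of the 12 with the gene length correction, the replicate block or any 1 mouse left out, except 1 without WT replicate 2, and DESeq2 called 6 (0.831% of all genes). Their sum was 238.4 to 273.9 CPM in WT and 404.3 to 505.8 CPM in mutant mice, and *Lyz2*, for lysozyme, was the highest (99.8 and 178.9 CPM). Of 8 monocyte markers 7 were tested and 6 were higher, but only 4 without mutant replicate 3. The quasi-likelihood test called none of them, and DESeq2 and edgeR's exact test called 2 each (0.831% and 0.738% of all genes). The monocyte sums were 105.1 to 127.7 and 127.3 to 181.2 CPM, which overlapped, and *Chil3* was at 0 in all mice. The highest was *F13a1*, followed by *Ace* and *Fn1*, both named after their values were seen. Whether these transcripts came from monocytes was not tested, so the sum is not a measure of monocytes. In 4 of the 7 tested, every mutant was above every WT mouse (8.3% of all genes tested).

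Markers of lymphocytes and granulocytes were low in all mice. The summed level of 12 T cell markers was 2.64 to 3.98 CPM in WT and 2.81 to 4.68 CPM in mutant mice, with overlap, 5 of them passed the filter, and *Bcl11b* was the highest. The 8 B cell markers (*Blk* the highest) summed to 2.20 to 4.35 and 4.50 to 6.53 CPM, without overlap. The 8 NK cell markers (*Nkg7* the highest) summed to 0.257 to 0.707 and 1.32 to 1.63 CPM, also without overlap. Each of these 8 NK cell markers was at 0 in at least 1 mouse. Only 3 of them were tested, and none of the 3 had at least 10 counts in every mouse, so their direction is not read as a result. Of 9 neutrophil markers 4 were tested, the sum was 1.24 to 2.62 and 3.30 to 4.37 CPM without overlap, *Csf3r* was the highest, and *Ly6g*, *Camp* and *Ngp* were at 0 in all mice. The 7 dendritic cell markers (*Zbtb46* the highest) summed to 18.9 to 22.3 and 22.8 to 24.7 CPM, without overlap. Of the 6 tested, 5 were higher, each with every mutant above every WT mouse (8.3% of all genes tested), and the median log2 fold change was 1.31. Only 3 had at least 10 counts in every mouse, with a median of 0.62. The 6 mast cell markers (*Mcpt4* the highest) summed to 1.30 to 2.41 and 2.98 to 4.70 CPM, also without overlap. Erythroid markers (*Hbb-bs* the highest) summed to 579.1, 748.4 and 1479 CPM in the WT mice and 2626, 1043 and 1769 CPM in the mutants, and these sums overlapped. The 6 of 8 erythroid markers that were tested all had a higher mutant mean, 3 of them with an unadjusted p under 0.05 (5.77% of all genes tested), and their median log2 fold change was 0.99 (0.70 to 1.49 over the alternatives), beside 0.91 for the 10 genes. In the lists of this paragraph the quasi-likelihood test called no marker. DESeq2 called 1 dendritic cell and 1 erythroid marker (0.831% of all genes), and edgeR's exact test 1 dendritic cell marker (0.738%). The part of any of these cells in the levels of the 10 genes was not tested.

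The genes with the profile over the 6 mice closest to that of *Cotl1* were sought among 13214 genes with a mean of at least 1 CPM, by the root mean square difference of log2(CPM + 0.5) after centring each gene. They were *C1qc* (0.103), which encodes a chain of complement C1q made by macrophages, *Irf5* (0.134), an interferon regulatory factor, *Spi1* (0.144), which encodes PU.1, *Zbp1* (0.168), a sensor of Z-form nucleic acids, and *Lad1* (0.184), which encodes ladinin. *C1qc* measured 13.6, 13.7 and 13.6 CPM in the WT mice and 28.7, 31.0 and 33.7 CPM in the mutants, the same order of mutant mice as for *Cotl1*. *Spi1* measured 1.69, 1.82 and 1.69 CPM against 3.84, 3.47 and 4.86 CPM. None of the other 9 leukocyte genes was among these 5, and the nearest were *Rac2* (0.236, rank 21) and *Lcp1* (0.241, rank 22), while *Ptprc* had rank 1082.

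Other genes for regulators of actin, integrin chains and adaptor proteins of the cell cortex, most of them known mainly from hematopoietic cells, were taken as a list of 42. *Coro2a* is in this list and also among the family relatives described below. All 42 were tested, and 38 had a higher and 4 a lower mutant mean. None was called by edgeR's quasi-likelihood test, 1 was called in that test without the count filter (0.0691% of all genes called higher), 7 by DESeq2 (0.831%) and 7 by edgeR's exact test (0.738%). An unadjusted p under 0.05 with a higher mutant level was found for 26 (5.77% of all genes tested), and in 25 every mutant was above every WT mouse (8.3% of all). The list, like the 10 genes, was chosen with these results known, and nothing is read from the difference. The median log2 fold change was 0.70, against 0.01 over all genes tested, and the sum was 242.8 to 258.1 CPM in WT and 316.1 to 321.1 CPM in mutant mice. The highest by CPM was *Arhgef6*, an exchange factor for RAC and CDC42, with 63.6 ± 6.29 and 58.3 ± 4.31 CPM and a log2 fold change of -0.13 (SE 0.15). *Arpc1b*, the ARP2/3 subunit isoform that prevails in blood cells, had 23.5 ± 0.366 and 34.9 ± 3.57 CPM (0.57, SE 0.15), and *Wipf1*, a partner of the Wiskott-Aldrich syndrome protein, 21.5 ± 3.49 and 24.8 ± 3.70 CPM (0.21, SE 0.18). Chosen after their values were seen, *Nckap1l* (HEM1, the hematopoietic subunit of the WAVE complex) had 6.27 ± 0.347 and 10.8 ± 1.24 CPM, *Was* 1.06 ± 0.132 and 2.13 ± 0.174 CPM, and *Itgam*, the integrin chain CD11b, 2.51 ± 0.431 and 6.98 ± 2.67 CPM. The exchange factor *Dock8*, also chosen after its values were seen, stood at the other end with 15.7 ± 2.10 and 12.6 ± 1.78 CPM.

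Actin regulators that all cells use formed a list of 52, of which 29 had a higher and 23 a lower mutant mean, with a median log2 fold change of 0.03, and none was called by edgeR's quasi-likelihood test, DESeq2 or edgeR's exact test. All mutants were above all WT mice for 5 of them and below for 4, and over all genes tested these patterns made up 8.3% and 7.23%. An unadjusted p under 0.05 was found for 5 higher (5.77% of all genes) and 2 lower (2.86%). The split turned with the settings, from 19 higher and 33 lower under library size alone, and 25 and 27 with the gene length correction or without mutant replicate 2, to 35 and 17 under upper quartile scaling and 37 and 15 without WT replicate 3 and mutant replicate 1. The median ran from -0.13 under library size alone to 0.11 without mutant replicate 1. *Gsn*, for gelsolin, measured 687.0 ± 103.2 and 680.7 ± 228.3 CPM, *Svil*, for supervillin, 270.9 ± 18.4 and 242.6 ± 5.66 CPM, and *Actb*, for beta actin, 201.9 ± 15.4 and 271.3 ± 48.8 CPM with a log2 fold change of 0.43 (SE 0.17; edgeR adjusted p = 0.533).

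Relatives of the 10 genes in the same protein families, most of them used by other cell types (the tetraspanin *Cd37*, of leukocytes, is an exception), formed a list of 27 with 26 tested. They had 17 higher and 9 lower mutant means and a median log2 fold change of 0.09, and none was called by edgeR's quasi-likelihood test, DESeq2 or edgeR's exact test, with an unadjusted p under 0.05 for 2 higher (5.77% of all genes) and 1 lower (2.86%). The split ran from 12 and 14 under scaling by library size alone and under the gene length correction to 19 and 7 under upper quartile scaling, and the median from -0.02 under library size alone to 0.20 without WT replicate 1. *Rac1*, the RAC of all cells, measured 183.4 and 170.1 CPM (log2 fold change -0.11) where *Rac2* gave 1.20. *Pls3*, the plastin of solid tissues, gave -0.17 where *Lcp1* gave 0.82, and *Arhgdia*, the widely used GDP-dissociation inhibitor, 0.20 where *Arhgdib* gave 0.87. *Cfl1*, for non-muscle cofilin, which is related to coactosin in its actin-binding fold, gave 0.24 where *Cotl1* gave 1.33. *Coro1b* was nearest to its leukocyte relative, with 17.5 and 27.3 CPM and a log2 fold change of 0.65 (edgeR adjusted p = 0.274) where *Coro1a* gave 0.95. These 5 relatives were named after their values were seen. The 3 of highest CPM in the list were *Cfl2* (muscle cofilin, 296.1 and 274.4 CPM), *Laptm4a* (268.1 and 288.8 CPM) and *Coro6* (200.5 and 209.6 CPM).

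**Figure D5:**
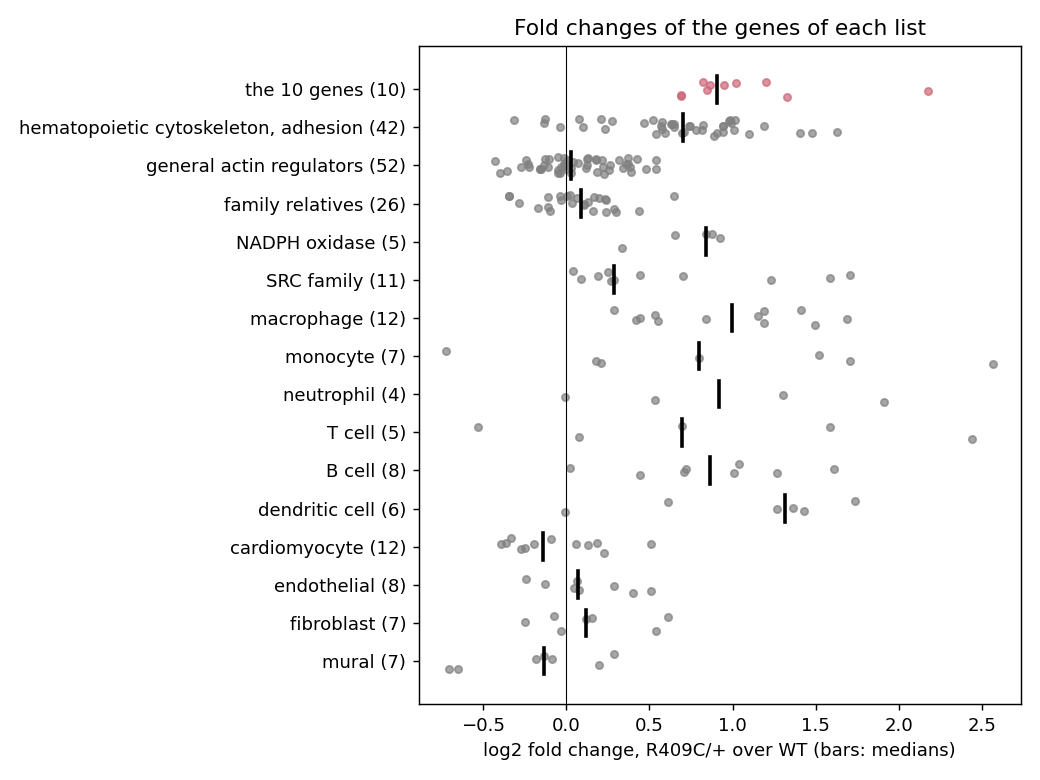
Log2 fold change of *Lztr1* R409C/+ over WT (horizontal axis) for every tested gene of the lists shown (points, number tested in parentheses), with the list's median as a bar. The medians of the 10 genes (red, 0.91) and the hematopoietic cytoskeleton and adhesion genes (0.70) lie to the right of those of the general actin regulators (0.03) and the family relatives (0.09). The points of the hematopoietic list start at -0.31 and overlap those of the general regulators, which reach 0.54, and the relatives, which reach 0.65. Some genes are in more than 1 list, such as *Coro2a* in the hematopoietic list and the relatives. No list was tested as a set.

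A few small systems tie the 10 genes to leukocyte functions. RAC2 is a subunit of the phagocyte NADPH oxidase, and the other 5 subunit genes all had a higher mutant mean, 4 of them without overlap (8.3% of all genes tested). None was called by edgeR's quasi-likelihood test, 1 by DESeq2 (0.831% of all genes) and 1 by edgeR's exact test (0.738%), and 3 had an unadjusted p under 0.05 (5.77%). The membrane subunits measured 12.3 ± 3.82 and 15.6 ± 1.57 CPM (*Cyba*) and 8.35 ± 0.794 and 15.0 ± 4.70 CPM (*Cybb*), and the cytosolic *Ncf1* 3.35 ± 0.388 and 6.36 ± 0.646 CPM. CD45 acts on SRC family kinases, and 11 such kinases and their regulators all had a higher mutant mean, with a median log2 fold change of 0.28 (0.45 without mutant replicate 1), but 9 were higher and 2 lower under library size alone and without mutant replicate 3. None was called by edgeR's quasi-likelihood test, DESeq2 or edgeR's exact test, and 2 had an unadjusted p under 0.05 (5.77% of all genes). One of them was *Fgr*, with 5, 11 and 6 counts in the WT mice and 19, 27 and 21 in the mutants. *Fgr* and *Lck*, both named after their values were seen, passed the count filter through their mutant counts, so their direction is not read as a result. With at least 10 counts in every mouse 9 of the 11 were left, all 9 higher. The most abundant, *Fyn*, *Yes1* and *Lyn*, gave log2 fold changes of 0.04, 0.09 and 0.25. COTL1 binds 5-lipoxygenase, the first enzyme of leukotriene synthesis, whose gene *Alox5* measured 14.8 ± 1.51 and 10.7 ± 0.787 CPM. Every mutant was below every WT mouse for *Alox5* (7.23% of all genes tested), with a log2 fold change of -0.47 (SE 0.17; edgeR adjusted p = 0.470). In the same pathway *Alox5ap*, for the protein that presents arachidonic acid to that enzyme, gave 2.86 ± 0.529 and 6.23 ± 0.936 CPM (1.12, SE 0.24), and *Lta4h*, for leukotriene A4 hydrolase, 19.9 ± 2.54 and 17.4 ± 1.21 CPM. Of the 5 leukotriene genes 3 were higher and 2 lower, with a median log2 fold change of 0.54 (0.35 without WT replicate 3 and 0.32 without mutant replicate 1 as well). *Pla2g4a* (0.54) and *Ltc4s* (1.03), named after their values were seen, were higher in every mutant than in every WT mouse, as was *Alox5ap* (8.3% of all genes tested). None of the 5 was called by edgeR's quasi-likelihood test, 1 by DESeq2 (0.831% of all genes) and 1 by the exact test (0.738%), and an unadjusted p under 0.05 was found for 2 higher (5.77%) and 1 lower (2.86%).

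Of the 10 genes, 6 share exonic bases with a gene on the other strand, and counting by strand is not stated for these libraries. Those with a partner that had counts were 172 bases of *Cd52* with *Crybg2*, which had 5 counts over all mice against 679 for *Cd52*, 136 bases of *Arhgdib* with *Pde6h* (23 counts against 5568), and 29 bases of *Coro1a* with *Bola2* (2763 counts against 3601). *Lcp1* shares 316 bases with *Gm15628* and 219 with *Gm15629*, both at 0 counts, and 78 with *Gm62951*, *Laptm5* shares 191 with *Gm38599* and *Rac2* shares 86 with *Gm63166*, partners that the count table does not list. If strand was not used, reads from those bases cannot be told apart between the genes.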

How the data were processed

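Left-ventricular RNA of 6 mice, 3 per genotype, was sequenced by the authors, whose notes name Trim Galore for trimming, HISAT2 for alignment to GRCm39 and StringTie for quantification, with rRNA data left out. They deposited whole-number counts per gene, with totals of 66130887 to 72641124 per mouse. Tool versions, annotation release and strand setting are not given in the sources used here. A second deposited table holds the authors' own fold changes and p-values for the same comparison, of which only the pairing of identifiers with symbols was used.

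Genotype was fitted to these counts by the robust quasi-likelihood method of edgeR 4.0.16 under R 4.3.3, after filterByExpr and TMM, and p-values were adjusted by Benjamini-Hochberg over 17212 genes with a threshold of 0.05. The script was tested on simulated data. Since each library is 1 mouse, the p-values rest on the spread between mice. Alternatives were DESeq2 1.42.0, edgeR's exact test, other scaling factors, other count filters, removal of mitochondrially encoded genes, a gene length correction (loess span 0.5), a replicate block and leaving out mice.

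The 10 genes and all gene lists were chosen with earlier results of these data known. Named besides the 10 were the 3 genes of highest CPM in each list, any called, the 5 profiles nearest to *Cotl1*, *Lztr1*, and of each marker list the highest gene and any at 0; others are marked as chosen later. The remaining markers (cardiomyocyte, atrial, endothelial, fibroblast, mural, platelet, cycling) are given in the closing section.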

Additional observations from a re-analysis of the deposited data

How the results depend on the processing

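Over 17 alternatives, including the joint omission of WT replicate 3 and mutant replicate 1, which was chosen after seeing the data, the 170 refitted log2 fold changes of the 10 genes lay between 0.43 and 2.33 and none changed sign. Calls at an adjusted p of 0.05 moved more. In all, 7 genes were called (6 higher, 1 lower). Library size alone gave 21 (15 and 6), the gene called among the 10 then being *Cd52*. DESeq2 gave 158 (143 and 15) with 8 of the 10, the edgeR exact test 140 (127 and 13) with 7, no filter 20 (19 and 1) with 2 (*Cotl1* and *Cd52*), and the gene length correction 2 (1 and 1) with 0. The replicate block gave 1 gene (0 and 1) and 0 of the 10. Deviations of same-numbered mice had correlations of -0.0013, 0.022 and -0.057, and those of differently numbered mice ran from -0.050 to 0.048. The labels do not say whether the numbers pair mice. So few correlations near 0 cannot decide it. Without WT replicate 3 and mutant replicate 1, 1 gene and 0 of the 10 were called. Leaving out 1 mouse gave 2 to 4 genes and 0 of the 10 for each mouse left out, with *Cotl1* at an adjusted p of 0.111 to 0.192, so its call needs all 6 mice. The adjusted p of *Cotl1* was 2.01e-06 to 0.251 over the alternatives. Where scaling or the mice were changed, 8 to 10 of the 10 genes had no overlap, but with fewer mice more genes do so by design (21.2% of all genes with 2 mice a group, 8.3% with 3). The cause of these shifts was not tested. DESeq2 size factors, upper quartile scaling, a minimum of 10 counts and removal of mitochondrially encoded genes kept the number of the 10 called at 1. *Cd52* had the fewest counts, 30 to 60 in WT mice, and so the largest counting error of the 10.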

Other observations

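The remaining cell type markers had both higher and lower members in most lists, and none was called by edgeR's quasi-likelihood test, DESeq2 or edgeR's exact test, with an unadjusted p under 0.05 for 6 higher (5.77% of all genes tested) and 2 lower (2.86%). Of 12 cardiomyocyte markers (*Myh6* the highest) 5 had a higher mutant mean, with 3 to 5 over the alternatives, of 8 endothelial markers (*Kdr*) 6, with 3 to 7, and of 7 fibroblast markers (*Dcn*) 4, with 3 to 7. Of 7 mural cell markers (*Rgs5*) 2 were higher, with 2 to 3, of 4 platelet markers tested (*Pf4*) 3, with 1 to 3, and of 2 atrial markers tested (*Nppa*) 2, with 1 to 2. Without WT replicate 3, without mutant replicate 1 or without both, all 7 fibroblast markers were higher, and without mutant replicate 3 only 3 of 8 endothelial and 3 of 12 cardiomyocyte markers were. Of 6 cycling genes 5 were higher, with 4 to 6, and *Mki67*, the usual marker of cycling cells, had the highest CPM. Their sum was 11.6 to 13.9 CPM in WT and 15.4 to 25.1 CPM in mutant mice, without overlap. The authors stained left ventricles of this genotype and age for the Ki-67 protein and reported no increase in positive nuclei. Whether more cells cycled was not tested here. The sums overlapped for the cardiomyocyte (47821 to 53604 and 38438 to 52911 CPM), endothelial (650.4 to 800.7 and 568.9 to 926.7 CPM) and fibroblast (808.7 to 1128 and 815.9 to 1098 CPM) lists.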
